A study of Mus musculus with 8 samples.

Results

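The genes described here are 10 canonical targets and modulators of Wnt signalling in the mouse embryo: Axin2, Lef1, Tcf7, Sp5, Sp8, Dkk1, Nkd1, Notum, Rspo3 and Lgr5. They were found by name, and each of the 10 matched 1 of the 55422 features of the deposited count matrices. The cells came from chimaeric embryos, in which ES cells that lack the dioxygenases Tet1, Tet2 and Tet3 (Tet-TKO) had been injected into host blastocysts. Pooled embryos were dissociated and live single cells were sorted into tdTomato+ Tet-TKO cells and tdTomato- WT host cells, which were profiled cell by cell with the 3′ chemistry of 10x Genomics. The E8.5 stage had 4 Tet-TKO libraries and 2 WT host libraries, whereas E7.5 had a single library for each. The Tet-TKO ES cells carry an H2B-tdTomato transgene under the CAG promoter, have a C57BL/6J and 129Sv background and were kept in 2i LIF medium, whereas the host cells are C57BL/6J, so strain, culture history and genotype cannot be told apart in any comparison. Embryos were pooled before sorting and the labels do not say whether libraries came from separate pools, so p-values measure only the spread between these libraries. Tet-TKO libraries 1 and 2, and likewise 3 and 4, were closer to each other (chi-square of 15.5 and 17.8 per degree of freedom between their gene counts) than any other pair of E8.5 libraries (141 to 541), which was still beyond sampling noise, and they were kept as 4 libraries.

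In canonical Wnt signalling a secreted ligand binds Frizzled and LRP receptors, which blocks the destruction complex that degrades beta-catenin. Stabilised beta-catenin then enters the nucleus and acts through TCF and LEF factors on target genes, several of which encode inhibitors that feed back on the pathway. In the gastrulating embryo the pathway is known for its part in primitive streak formation, in the paraxial mesoderm and in the growth of the tail bud, and its inhibition is needed at the anterior end. Lef1 and Tcf7 are DNA-binding partners of beta-catenin, and Sp5 and Sp8 are zinc finger factors that act with them in the caudal embryo. Axin2 is a scaffold of the destruction complex, Nkd1 binds Dishevelled, Notum is a secreted enzyme that removes the lipid from Wnt ligands, and Dkk1 is a secreted inhibitor that binds LRP co-receptors. Rspo3 is a secreted protein that raises the number of Wnt receptors at the cell surface, and Lgr5 is a receptor for proteins of this kind.

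Promoter windows of 7 of the 10 genes were found in the RefSeq set used here (build GRCm38.p6), from 250 bases before to 50 bases after the annotated start, and none was used for Notum, Rspo3 and Lgr5. Both strands were searched for the letters CTTTGAT and CTTTGAA, the core recognised by TCF and LEF factors. One or the other was present in 8.65% of 32851 promoters of this length, in 3.73% as CTTTGAT and in 5.14% as CTTTGAA. Of the 7 windows, those of Sp5, Sp8 and Dkk1 held one of them, and they are printed 5′ to 3′ on the strand of the gene with these letters in capitals, because factors of the pathway bind such letters. The windows are Sp5 at chr2:70474673-70474972 on the plus strand, Sp8 at chr12:118846983-118847282 on the plus strand and Dkk1 at chr19:30549447-30549746 on the minus strand.
Sp5: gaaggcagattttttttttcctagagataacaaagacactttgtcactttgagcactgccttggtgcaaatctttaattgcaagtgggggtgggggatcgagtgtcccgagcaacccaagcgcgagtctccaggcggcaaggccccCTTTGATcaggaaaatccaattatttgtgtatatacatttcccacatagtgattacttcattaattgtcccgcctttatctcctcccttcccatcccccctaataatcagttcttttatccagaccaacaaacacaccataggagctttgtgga
Sp8: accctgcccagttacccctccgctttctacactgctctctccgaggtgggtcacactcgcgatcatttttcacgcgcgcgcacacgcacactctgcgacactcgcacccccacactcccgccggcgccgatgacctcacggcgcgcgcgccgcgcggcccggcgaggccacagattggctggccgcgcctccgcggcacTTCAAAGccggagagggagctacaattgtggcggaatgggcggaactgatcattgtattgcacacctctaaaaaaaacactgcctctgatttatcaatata
Dkk1: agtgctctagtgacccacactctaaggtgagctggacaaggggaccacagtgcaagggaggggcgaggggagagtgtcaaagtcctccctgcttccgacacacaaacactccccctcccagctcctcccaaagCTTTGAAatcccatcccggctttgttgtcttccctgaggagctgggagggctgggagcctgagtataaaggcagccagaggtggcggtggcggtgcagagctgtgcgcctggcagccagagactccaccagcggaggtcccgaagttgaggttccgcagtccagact
The match in Sp5 was CTTTGAT, starting at position -104 from the gene start, that in Dkk1 was CTTTGAA at -117, and that in Sp8 was CTTTGAA on the opposite strand at -51, which reads TTCAAAG on the strand shown. The GC box letters GGGCGG, searched on both strands, were present in the windows of Axin2, Lef1, Sp8 and Tcf7 and in 35.7% of all promoters. A match describes letters only, and the other windows may hold other forms of the site.

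In the GENCODE M21 annotation of the same build the genes are protein coding and lie on 7 chromosomes. Axin2 spans chr11:108920349-108950783, Notum chr11:120653788-120661175 and Tcf7 chr11:52252371-52283014, so 3 of the genes share chromosome 11. Rspo3 (chr10:29452416-29535867) and Lgr5 (chr10:115450311-115587780) lie on chromosome 10. Lef1 spans chr3:131110471-131224356, Sp5 chr2:70474923-70477729, Sp8 chr12:118846329-118852576, Dkk1 chr19:30545863-30549665 and Nkd1 chr8:88521354-88594884. The starts of Sp8 and Dkk1 in this annotation lie upstream of the RefSeq starts used for their windows, from which the positions of the matches are counted.

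The libraries held 65601218 to 136982886 UMIs (unique molecular identifiers, each counting 1 captured transcript), and 1012 to 9552 cells per library were kept, with median depths of 12176 to 68704 UMIs per cell. Tet-TKO libraries 3 and 4 at E8.5 stood apart, with fewer cells (2304 and 1012) and deeper ones (medians of 40386.5 and 68704 UMIs), so values are also given for libraries 1 and 2 and for libraries 3 and 4 alone where these differ. tdTomato was at 71.4 to 144 CPM (UMIs of the gene over the total UMIs, on the usual fixed scale) in the Tet-TKO libraries and at 0.443 to 0.959 CPM in the WT host libraries. Transcripts of the targeted genes were still counted, with Tet1 at 9.93, 10.96, 20.1 and 20.9 CPM in Tet-TKO libraries 1 to 4 and at 22.6 and 20.4 CPM in the WT host libraries. Tet2 was at 5.99, 5.555, 10.55 and 9.71 CPM against 4.67 and 4.63 CPM, and Tet3 at 23.5, 22.45, 37.5 and 36.4 CPM against 23.1 and 23.2 CPM. Tags at the 3′ end that lie outside the deleted part do not check the knockout. Pairs of libraries shared at most 28 cell barcodes. Cells were clustered without the genes described here, separately at each stage, and a cluster was named (as "X-like") from marker genes or otherwise kept its number, which has no relation between stages. A level is the CPM over all UMIs of a class in a library. UMIs of 3′ tags are not divided by gene length, and levels are compared for 1 gene at a time.

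Over whole E8.5 libraries, where shares of cell types differ between genotypes, Rspo3 had the largest difference of the 10 genes. It was at 133, 124, 106 and 90.9 CPM in Tet-TKO libraries 1 to 4 and at 54.3 and 33.9 CPM in the WT host libraries. Every Tet-TKO library was above both WT host libraries, and the log2 fold change was 1.30 ± 0.27 (SE, 4 against 2 libraries, adjusted p = 0.030 by the quasi-likelihood test of edgeR, adjusted over all genes by Benjamini and Hochberg's method). This passed the fold but not the adjusted p of 0.01 that a call required, and the log2 fold change was 1.56 with libraries 1 and 2 alone and 0.98 with libraries 3 and 4 alone. DESeq2, with an adjusted p of 1.27e-04, and the fit with a block for the library number called it.

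Lef1 was at 81.3, 78.6, 68.4 and 74.0 CPM in the Tet-TKO libraries in contrast to 50.5 and 50.4 CPM in WT host libraries, a log2 fold change of 0.51 ± 0.14 (SE, edgeR adjusted p = 0.073). Axin2 was at 19.1, 19.1, 29.5 and 33.9 CPM against 14.7 and 15.3 CPM (0.66 ± 0.21, edgeR adjusted p = 0.10), and Tcf7 at 26.3, 25.3, 24.3 and 24.7 CPM against 19.4 and 19.5 CPM (0.29 ± 0.12, edgeR adjusted p = 0.18). For these genes too no Tet-TKO library overlapped the WT host libraries, and 27.2% of 13224 expressed genes had every Tet-TKO library above. The other 6 genes had log2 fold changes between -0.15 (Lgr5) and 0.32 (Sp8), with edgeR adjusted p from 0.33 to 0.89. None of the 10 genes was called over whole libraries by edgeR, where 2.65% of 21075 genes were, and the count of members at an unadjusted p under 0.05 was 4 (Rspo3, Lef1, Axin2 and Tcf7), where 26.7% of all genes passed it. DESeq2 called 1, Rspo3. In bulk sums of this kind, fewer cells of a type and less RNA per cell cannot be told apart.

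Without erythroid-like and extraembryonic-like cells, the former with 10 to 145 cells per Tet-TKO library against 1399 and 2334 per WT host library, the differences of most genes were smaller or lay on the other side of 0. The log2 fold change of Rspo3 was then 0.91, that of Axin2 0.32 and that of Lef1 0.10, while Nkd1 (-0.15), Sp5 (-0.29), Sp8 (-0.03) and Dkk1 (-0.31) had values below 0 in place of values above 0. Notum (-0.41) and Lgr5 (-0.50) lay further below 0 than with all cells (-0.07 and -0.15). A second description weighted 22 classes by the same share in every library. At these fixed shares Notum was at 3.90, 4.52, 3.61 and 3.35 CPM in the Tet-TKO libraries and at 6.69 and 6.76 CPM in the WT host libraries, a log2 ratio of -0.82. Lef1 was then at 69.7, 71.3, 65.5 and 66.7 CPM against 80.9 and 83.5 CPM (log2 ratio -0.27), so that the order of the genotypes was opposite to that over whole libraries. Nkd1 was at 37.2, 41.1, 35.7 and 35.5 CPM against 44.7 and 49.9 CPM (-0.34), and Lgr5 at 2.18, 1.73, 2.04 and 1.91 CPM against 2.41 and 2.23 CPM (-0.24).

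Rspo3 kept its order at fixed shares, with 98.9, 102, 98.9 and 83.4 CPM in the Tet-TKO libraries and 76.9 and 59.0 CPM in the WT host libraries (log2 ratio 0.50). For Notum, Lef1, Nkd1, Lgr5 and Rspo3 the genotypes did not overlap and the exact two-sided permutation test gave p = 0.133, which is the smallest p that 15 splits of 6 libraries allow. The splits treat the 6 libraries as exchangeable, although Tet-TKO libraries 1 and 2, and likewise 3 and 4, are close pairs. Among all expressed genes, 19.5% had every Tet-TKO library below the WT host libraries and 11.7% above. Axin2 overlapped, since Tet-TKO libraries 1 and 2 (17.8 and 18.5 CPM) were below and libraries 3 and 4 (27.5 and 31.4 CPM) above the WT host libraries (19.3 and 19.8 CPM). Tcf7, Sp5, Sp8 and Dkk1 had log2 ratios between -0.13 and 0.15, with exact permutation p from 0.267 to 0.933.

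**Figure D1:**
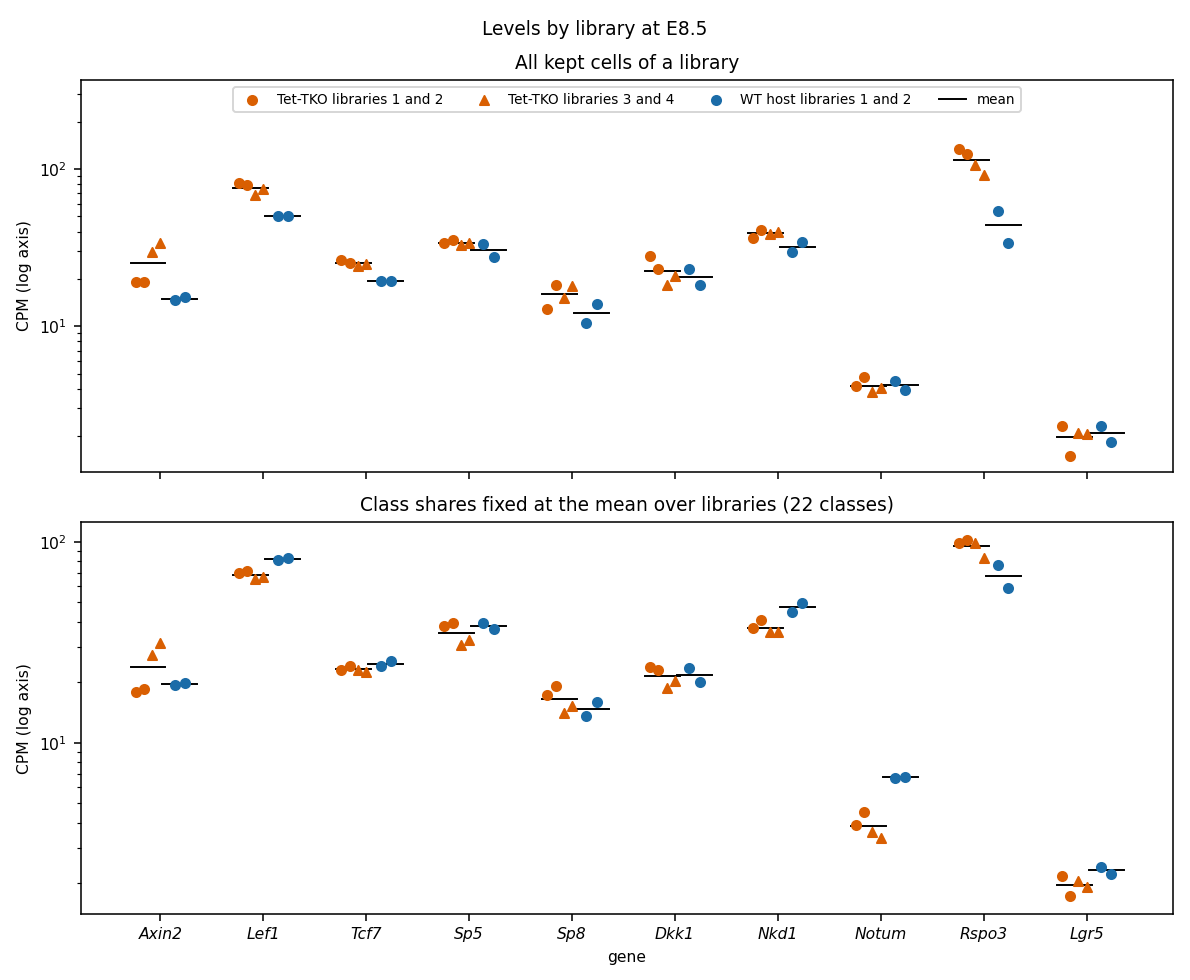
CPM (log axis) of the 10 genes in each E8.5 library, over all kept cells (top) and with the shares of 22 classes held fixed (bottom). Circles and triangles are libraries, colours mark the genotype, and bars are means. Lef1 lies above the WT host libraries in the upper panel (68.4 to 81.3 against 50.4 and 50.5 CPM) and below them in the lower panel (65.5 to 71.3 against 80.9 and 83.5 CPM), and the triangles of Axin2, Tet-TKO libraries 3 and 4, lie above its circles in both.

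Levels of each gene ranged widely between classes. For Lef1 the highest level in WT host libraries was in presomitic mesoderm-like cells, at 403 and 378 CPM, where the Tet-TKO libraries had 297, 322, 254 and 312 CPM. All 4 were below both WT host libraries (log2 fold change -0.39 ± 0.14 SE, edgeR adjusted p = 0.48). Next were cluster 1 (leading genes Cdx4, Mixl1 and Evx1os), at 243 and 282 CPM against 210, 238, 220 and 222 CPM in the Tet-TKO libraries, and extraembryonic mesoderm-like cells, at 189 and 224 CPM against 137, 148, 160 and 147 CPM. Both had every Tet-TKO library below the WT host libraries, by log2 fold changes of -0.23 and -0.49, and neither was called. After thinning each cell to 5000 UMIs, 84.4% and 84.1% of WT host presomitic mesoderm-like cells had a Lef1 UMI (95.8% and 98.2% unthinned), against 65.6% to 77.4% in the Tet-TKO libraries (93.6% to 97.1% unthinned). In erythroid-like cells of the WT host libraries, used as a type that should lack the gene, the thinned shares were 2.05% and 2.64%. Median depths in the WT host libraries were 13054 and 12413 UMIs per presomitic mesoderm-like cell and 19201 and 16187 UMIs per erythroid-like cell.

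Tcf7 had its highest WT levels in cluster 1 (45.0 and 52.2 CPM), cluster 4 (leading genes Lhx1, Osr1 and Aldh1a2, 45.6 and 46.8 CPM) and presomitic mesoderm-like cells (45.2 and 45.3 CPM), whose order cannot be set since the libraries overlap. In cluster 4 the Tet-TKO libraries had 38.3, 32.8, 30.5 and 24.7 CPM (log2 fold change -0.55 ± 0.21, edgeR adjusted p = 0.43). In cluster 1, at 43.2, 48.0, 51.6 and 43.9 CPM, and in presomitic mesoderm-like cells, at 39.4, 45.7, 35.1 and 45.5 CPM, the Tet-TKO libraries overlapped the WT host libraries.

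Sp5 was highest in notochord-like cells, at 418 and 478 CPM in the WT host libraries and at 281, 207 and 331 CPM in Tet-TKO libraries 1 to 3 (log2 fold change -0.61 ± 0.22, edgeR adjusted p = 0.37). This class was small, with 29, 11 and 15 cells in those libraries and 49 and 20 WT host cells, and library 4 with 1 cell was left out of the fit. It is made up of clusters 41 and 43, of which cluster 41 held 83.9% of the Tet-TKO and 47.8% of the WT host cells. In neuromesodermal progenitor and caudal epiblast-like cells Sp5 was at 161 and 120 CPM in the WT host libraries and at 180, 151, 103 and 108 CPM in the Tet-TKO libraries, and in presomitic mesoderm-like cells at 135 and 125 CPM against 140, 124, 95.2 and 120 CPM. Both sets of values overlapped. In each of these 2 classes the Tet-TKO libraries 3 and 4 were below libraries 1 and 2.

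Sp8 was highest in neuromesodermal progenitor and caudal epiblast-like cells (57.4 and 70.3 CPM in WT host libraries, 70.1, 72.6, 54.3 and 63.7 CPM in Tet-TKO libraries), followed by midbrain and hindbrain-like cells (46.5 and 53.5 against 58.4, 58.1, 42.7 and 50.4 CPM) and forebrain-like cells (40.4 and 49.0 against 57.9, 63.6, 39.7 and 53.1 CPM). The genotypes overlapped in all 3 classes, and the log2 fold changes were 0.05 to 0.26 with edgeR adjusted p from 0.66 to 0.94. In extraembryonic mesoderm-like cells Sp8 was at most at 1.24 CPM in the WT host and 1.84 CPM in the Tet-TKO libraries.

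**Figure D2:**
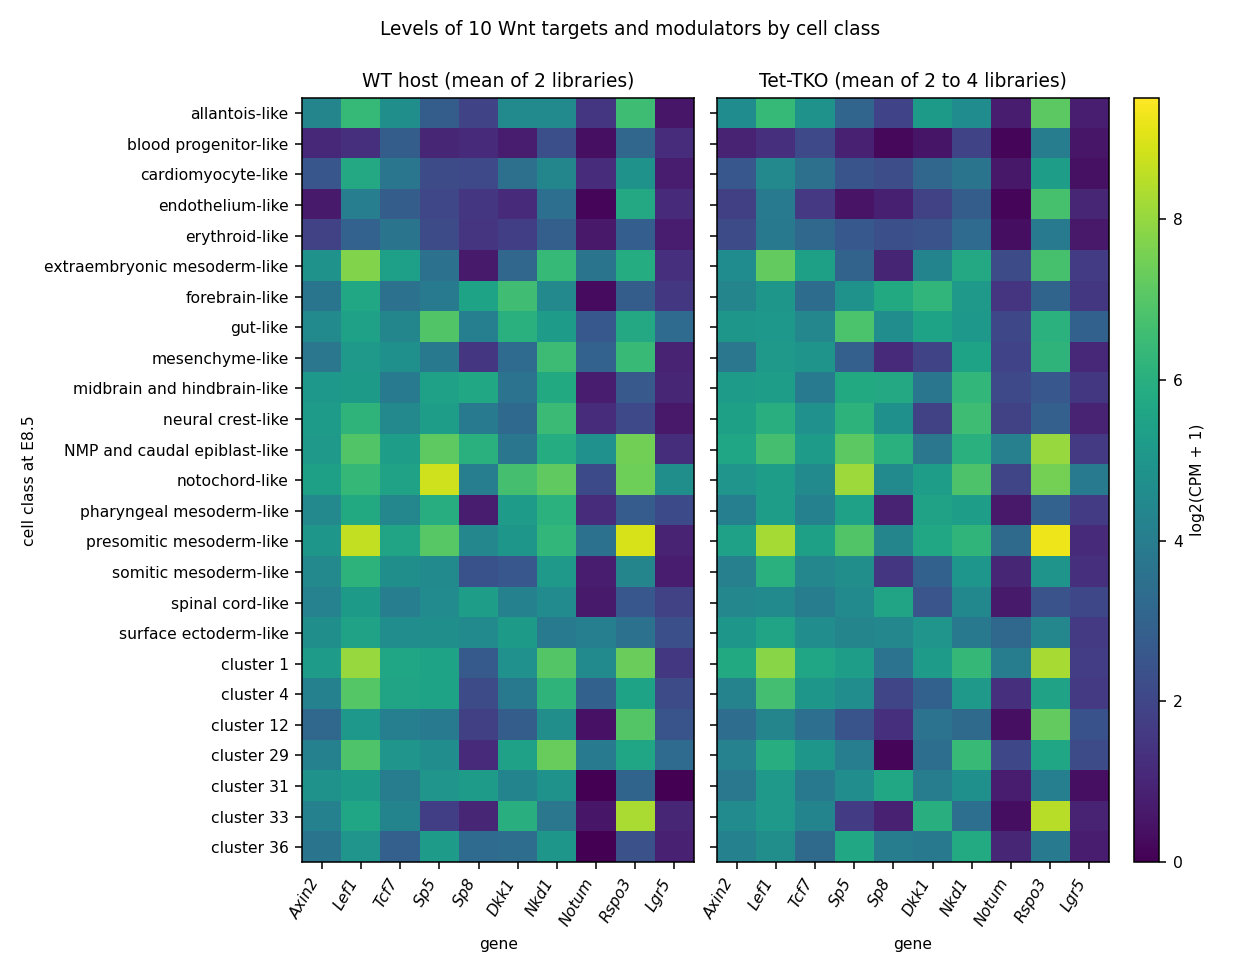
Heatmap of log2(CPM + 1) for the 10 genes (columns) by E8.5 class (rows), as the mean over WT host libraries and over Tet-TKO libraries. Brighter squares are higher levels. Lef1 and Rspo3 are brightest in presomitic mesoderm-like cells (WT host means of 391 and 482 CPM), Sp5 in notochord-like cells (448 CPM) and Sp8 in neuromesodermal and neural classes, in both genotypes.

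Among the inhibitors, and among classes with cells in both WT host libraries, Axin2 was highest in notochord-like cells (43.4 and 38.5 CPM in WT host libraries), neural crest-like cells (40.0 and 34.3 CPM) and cluster 1 (38.1 and 35.2 CPM), which do not differ beyond the spread of the libraries. Primordial germ cell-like cells, with enough cells in 1 WT host library only and not tested, had 56.8 CPM there, and the same sum had Notum at 21.3 CPM and Rspo3 at 256 CPM. In notochord-like cells Tet-TKO libraries 1 to 3 had 11.2, 7.97 and 71.0 CPM, of which the value of library 2 rests on 1 UMI. In neural crest-like cells they had 31.4, 29.7, 52.2 and 52.2 CPM and in cluster 1 35.4, 40.6, 68.0 and 68.8 CPM. Libraries 3 and 4 were thus above both WT host libraries in neural crest-like cells and cluster 1, as was library 3 in notochord-like cells. Libraries 1 and 2 were below both in notochord-like and neural crest-like cells and near their level in cluster 1.

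This split between the Tet-TKO libraries ran through most classes for Axin2. With libraries 1 and 2 alone its log2 fold change was below 0 in 15 of 23 classes (median -0.12), and with libraries 3 and 4 alone it was above 0 in 18 of 22 (median 0.49). Tet1, Tet2 and Tet3 had a split of the same kind over whole libraries, as given above, and so did depth per cell. Their part in the values of Axin2 was not tested.

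Nkd1 had its highest WT level in cluster 29 (leading genes Mab21l2, Shisa3 and Tnc), at 151 and 159 CPM, where the Tet-TKO libraries had 84.7, 81.1, 83.3 and 96.3 CPM. The log2 fold change of -0.88 ± 0.14 (SE) passed the adjusted p (0.0092 by edgeR) but not the fold that a call required. Notochord-like cells had 114 and 170 CPM against 104, 87.7 and 150 CPM in Tet-TKO libraries 1 to 3, which overlapped. In cluster 1 the values were 117 and 127 CPM against 79.4, 86.2, 74.9 and 74.3 CPM, all 4 below the WT host libraries (log2 fold change -0.62 ± 0.13, edgeR adjusted p = 0.084).

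Notum had its highest WT levels, among classes with cells in both WT host libraries, in neuromesodermal progenitor and caudal epiblast-like cells (34.2 and 19.4 CPM), cluster 1 (22.1 and 22.8 CPM) and surface ectoderm-like cells (14 and 17.9 CPM). The Tet-TKO libraries had 22.2, 17.6, 12.9 and 12.8 CPM in the first (log2 fold change -0.69, edgeR adjusted p = 0.40), 10.9, 15.5, 16.9 and 15.9 CPM in the second (-0.61, 0.28) and 10.5, 11.9, 5.05 and 5.38 CPM in the third (-0.89, 0.40). In cluster 1 and in surface ectoderm-like cells every Tet-TKO library was below both WT host libraries.

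Dkk1 was highest in notochord-like cells (70.9 and 137 CPM), forebrain-like cells (83.3 and 108 CPM) and gut-like cells (82.1 and 46.2 CPM) of the WT host libraries. In notochord-like cells Tet-TKO libraries 1 to 3 had 25.2, 39.9 and 48.7 CPM, all below the WT host libraries (log2 fold change -1.31 ± 0.42, edgeR adjusted p = 0.28). Forebrain-like cells had 33.1, 93.8, 58.9 and 112 CPM and gut-like cells 53.3, 63.9, 29.8 and 33.5 CPM in the Tet-TKO libraries, which overlapped the WT host libraries. Of the clusters of gut-like cells taken apart, the log2 fold change of Dkk1 was -1.79 ± 0.39 (edgeR adjusted p = 0.040) in cluster 9, 0.08 in cluster 18 and 0.23 in cluster 34, and none was called. In presomitic mesoderm-like cells, where the WT host libraries had 31.2 and 31.4 CPM, Tet-TKO libraries 1 and 2 (29.1 and 23.4 CPM) and libraries 3 and 4 (71 and 80.04 CPM) lay on opposite sides.

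Rspo3 was highest in presomitic mesoderm-like cells, at 518 and 446 CPM in the WT host libraries and at 560, 647, 576 and 635 CPM in the Tet-TKO libraries. All 4 were above both, by a log2 fold change of 0.34 ± 0.13 (SE, edgeR adjusted p = 0.51). Cluster 33 (leading genes Etv2, Lax1 and Kdr) followed, at 340 and 289 CPM against 350, 344 and 385 CPM in Tet-TKO libraries 1 to 3, and library 4 was left out for its few cells. In neuromesodermal progenitor and caudal epiblast-like cells the values were 160 and 193 CPM against 203, 247, 319.5 and 279 CPM, again without overlap (0.57 ± 0.16, edgeR adjusted p = 0.16).

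Lgr5 was highest in notochord-like cells, with 18.3 and 32.96 CPM in the WT host libraries and 14.03, 0 and 28.4 CPM in Tet-TKO libraries 1 to 3, where the count of 0 UMIs in library 2 allows a level of up to 23.9 CPM. Gut-like cells had 9.51 and 8.51 CPM against 7.67, 7.48, 7.66 and 4.42 CPM, with every Tet-TKO library below (log2 fold change -0.28 ± 0.25, edgeR adjusted p = 0.70). Its clusters taken apart went opposite ways, with log2 fold changes of -0.78 in cluster 9 and 1.39 in cluster 18 (edgeR adjusted p = 0.32 and 0.34). In cluster 29 the values were 8.45 and 9.34 CPM against 3.31, 2.93, 3.52 and 4.48 CPM (-1.33 ± 0.39, edgeR adjusted p = 0.18).

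Tested within 25 classes on UMI counts summed per class and library, the 10 genes passed the filter on low counts in 204 tests, from 11 classes for Notum and Lgr5 to 25 for Nkd1 and Rspo3. A call required an adjusted p of at most 0.01 together with a log2 fold change of at least 1 in size. Of the 204 tests 3 were called, all lower in Tet-TKO cells, against 0.588% of all 259735 gene and class tests, of which 0.363% were lower and 0.225% higher. The 3 calls were Dkk1 in cluster 29, Axin2 in cluster 31 and Nkd1 in mesenchyme-like cells. With libraries 1 and 2 and libraries 3 and 4 each summed to 1, Dkk1 (log2 fold change -2.12, edgeR adjusted p = 0.0021) and Nkd1 (-1.09, 0.0093) were called, while cluster 31, left with 1 such sum, was not fitted, since 2 sums of each genotype were required in this setting. No member was called higher by edgeR, and none was by DESeq2, which called 1.07% of all tests. The members that DESeq2 called lower were Dkk1 in cluster 29, Nkd1 in mesenchyme-like cells and in cluster 12, and Lef1 in cardiomyocyte-like cells. At an unadjusted p under 0.05, 22 of the 204 tests were higher and 39 lower, against 5.97% and 5.98% of all tests. With Tet-TKO libraries 1 and 2 alone, 7 member tests were called lower and 5 higher (1.56% of all tests called), and with libraries 3 and 4 alone 20 were lower and 3 higher (4.16%).

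Dkk1 in cluster 29 was at 8.04, 10.7, 8.61 and 11.9 CPM in the Tet-TKO libraries and at 32.2 and 51.8 CPM in the WT host libraries. The groups did not overlap, and the log2 fold change was -2.12 ± 0.26 (SE, edgeR adjusted p = 0.0021), in a cluster where 0.515% of 9897 genes were called. It was nearly the same with Tet-TKO libraries 1 and 2 alone (-2.10) and with libraries 3 and 4 alone (-2.12). After thinning to 5000 UMIs, 2.54% to 7.35% of Tet-TKO cells and 9.76% and 16.7% of WT host cells of the cluster had a Dkk1 UMI (8.52% to 23.7%, and 30.1% and 26.3%, unthinned, at WT host medians of 15428 and 12702 UMIs), against 0.608% and 0.729% of WT host erythroid-like cells. Without WT host library 1 or without WT host library 2, which leaves a lone sample assumed to vary like the others, the adjusted p was 0.014 and 0.094.

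Other cell type markers differed between the genotypes in this cluster, and of 26 marker lists 6 lay below and 3 above the WT host libraries in every Tet-TKO library. The summed level of the 8 erythroid markers in cluster 29 was 6.72 to 38.1 CPM in Tet-TKO and 474 to 1288 CPM in WT host libraries, with 7 of 8 lower in every Tet-TKO library and Hemgn at 0. The 7 cardiomyocyte markers were at 266 to 432 CPM against 824 to 1076 CPM (4 of 7 lower, 1 higher, none at 0), and the 6 mesenchyme markers at 936 to 1089 CPM against 1579 to 1720 CPM (2 of 6 lower, 1 higher). The 6 notochord markers, of the class with the highest Dkk1 level, summed to 8.99 to 15.6 CPM against 16.98 to 19.2 CPM (1 of 6 lower, Noto at 0). The 5 intermediate mesoderm markers were higher, at 36.4 to 60.85 CPM against 22.3 to 33.1 CPM (2 of 5 higher, Pax8 at 0), as were the 6 neural crest markers, at 15.6 to 39.5 CPM against 9.21 to 13.6 CPM (1 of 6 higher, Foxd3 at 0). Their part in the result was not tested. Dkk1 itself was at a WT host mean of 2.39 CPM in erythroid-like cells.

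Axin2 in cluster 31 (leading genes Pim2, Fgf5 and Eras) was at 14.2 and 11.8 CPM in Tet-TKO libraries 1 and 2 and at 30.3 and 26.7 CPM in the WT host libraries, a log2 fold change of -1.09 ± 0.25 (SE, edgeR adjusted p = 0.0095). Tet-TKO libraries 3 and 4 had 9 and 1 cells in the cluster and were left out of the fit. Libraries 1 and 2 are a close pair (chi-square of 15.5 per degree of freedom), so they are hardly separate replicates. With this pair alone the log2 fold change of Axin2 was below 0 in 15 of 23 classes. The call was lost with DESeq2 (adjusted p = 0.57), and in this cluster 0.981% of 9172 genes were called. It was also lost with only cells whose tdTomato count matched their genotype, and with clusters made without correction between libraries. Thinned shares of cells with an Axin2 UMI were 3.61% and 6.37% in these Tet-TKO libraries and 14.4% and 20% in the WT host libraries (22.2% and 12.6%, and 32.1% and 26.3%, unthinned), against 1.14% and 0.774% in WT host erythroid-like cells. Beside it, the 8 erythroid markers summed to 24.7 to 48.9 CPM in Tet-TKO and 555 to 1395 CPM in WT host libraries (5 of 8 lower, none at 0), and the 7 spinal cord markers to 170 to 198 CPM against 239 to 295 CPM (3 of 7 lower, Olig2 at 0). Other lists lay above, with the 7 surface ectoderm markers at 33.6 to 43.8 CPM against 10.3 to 18.8 CPM (3 of 7 higher, none at 0) and the 5 extraembryonic mesoderm markers at 26.4 to 34.8 CPM against 11.9 to 18.5 CPM (3 of 5 higher, none at 0). Of 26 marker lists 8 were below and 8 above the WT host libraries in both Tet-TKO libraries. Their part was not tested.

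Nkd1 in mesenchyme-like cells was at 39.1, 49.7, 40.9 and 50.8 CPM in the Tet-TKO libraries and at 81.3 and 101 CPM in the WT host libraries (log2 fold change -1.06 ± 0.16 SE, edgeR adjusted p = 0.0093, with 0.935% of 11985 genes called). The call was lost whichever of the 6 libraries was left out, with edgeR adjusted p from 0.010 when Tet-TKO library 4 was dropped to 0.22 when WT host library 2 was. The class is made up of clusters 6 and 27, whose shares differed between the genotypes, with cluster 6 holding 78.9% of the Tet-TKO but 36.6% of the WT host cells. Taken apart, cluster 6 had 32.9, 32.4, 27.8 and 31.5 CPM against 41.0 and 54.6 CPM (-0.64 ± 0.19, edgeR adjusted p = 0.38, 0.0347% of genes called) and cluster 27 had 73.2, 103, 109 and 156 CPM against 106 and 123 CPM (-0.13 ± 0.22, edgeR adjusted p = 0.86, 1.23% of genes called). The call was thus made on the class and in neither cluster. In every library the level of Nkd1 was lower in cluster 6 than in cluster 27. The clusters were tested apart after the values of the class were seen, and no member was called in any of the 21 clusters tested in this way. In the class, the 6 mesenchyme markers summed to 1992 to 2280 CPM in Tet-TKO and 4357 to 5365 CPM in WT host libraries (3 of 6 lower), the 7 cardiomyocyte markers to 46.3 to 70.2 against 285 to 298 CPM (6 of 7 lower) and the 8 erythroid markers to 6.05 to 51.4 against 456 to 1499 CPM (6 of 8 lower), with no marker of these lists at 0. Of 26 lists 15 lay below and 2 above the WT host libraries, and their part was not tested.

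**Figure D3:**
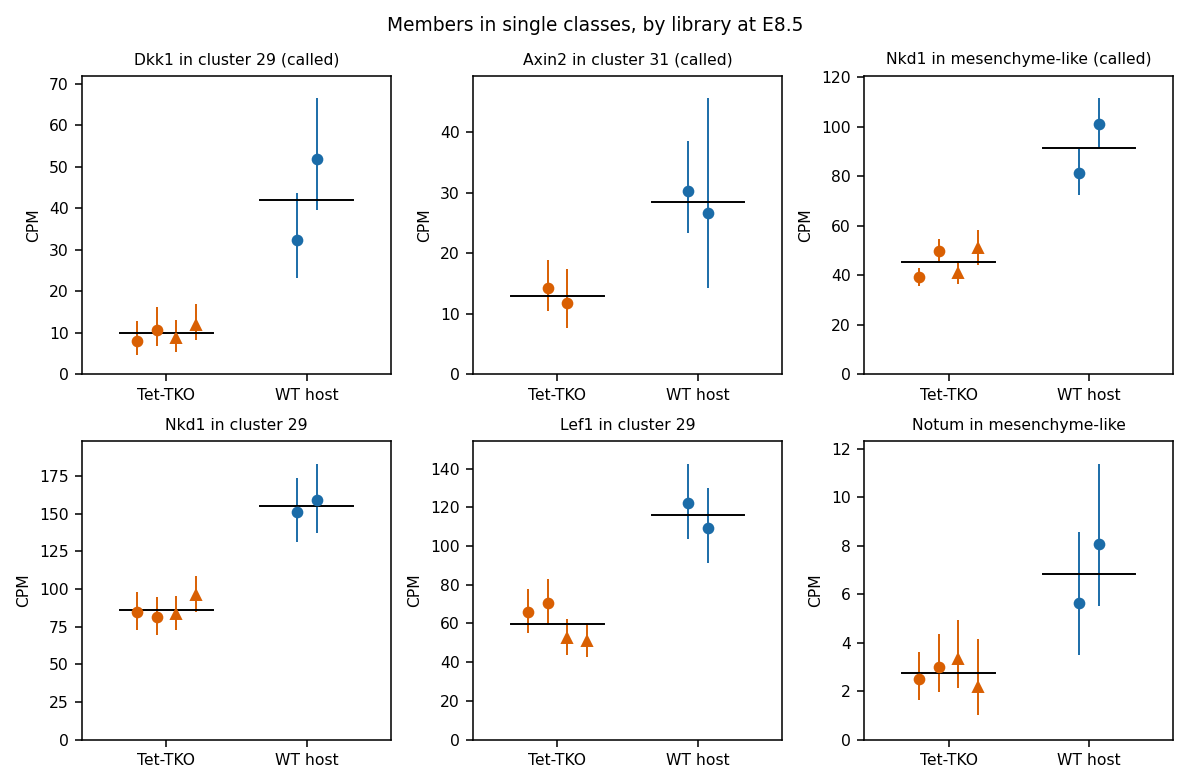
CPM in each E8.5 library with 95% Poisson intervals (counting error only) for the 3 called tests, Dkk1 in cluster 29, Axin2 in cluster 31 and Nkd1 in mesenchyme-like cells, and for Nkd1 in cluster 29, Lef1 in cluster 29 and Notum in mesenchyme-like cells, which were not called. In each panel the Tet-TKO libraries of the fit lie below both WT host libraries, for Dkk1 at 8.04 to 11.9 against 32.2 and 51.8 CPM.

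Several other tests came close to a call and are named after their values were seen. Nkd1 in cluster 12 (leading genes Gja4, Rhoj and Sox18) was at 11.6, 8.40, 9.65 and 5.20 CPM in the Tet-TKO libraries and at 22.9 and 26.4 CPM in the WT host libraries (log2 fold change -1.39 ± 0.25, edgeR adjusted p = 0.016). Lef1 in cardiomyocyte-like cells was at 21.96, 27.6, 21.9 and 13.2 CPM against 60.4 and 44.6 CPM (-1.39 ± 0.27, edgeR adjusted p = 0.025). Both were called by DESeq2 and with either pair of Tet-TKO libraries alone. In cluster 12 the 8 erythroid markers summed to 6.07 to 41.4 CPM in Tet-TKO and 788 to 1836 CPM in WT host libraries (7 of 8 lower) and the 7 endothelium markers to 353 to 418 against 511 to 562 CPM (3 of 7 lower), 9 of 26 lists lay below and 1 above the WT host libraries, and their part was not tested. Notum was lower in every Tet-TKO library in cluster 4, at 1.29, 2.53, 0.722 and 1.28 CPM against 7.37 and 6.15 CPM (-2.22 ± 0.47, edgeR adjusted p = 0.10), and in mesenchyme-like cells, at 2.48, 2.998, 3.31 and 2.18 CPM against 5.61 and 8.06 CPM (-1.34 ± 0.30, edgeR adjusted p = 0.048). In the latter class Notum, too, differed in level between the clusters. Cluster 27 had 10.9, 10.8, 19.7 and 14.02 CPM in the Tet-TKO and 8.69 and 11.8 CPM in the WT host libraries, while cluster 6 had at most 0.975 CPM in any library. Among tests higher in Tet-TKO cells, Sp8 had the lowest adjusted p. In cluster 1 it was at 9.59 to 13.5 against 5.26 and 5.76 CPM (1.02, edgeR adjusted p = 0.11). There 9.85% of all genes had every Tet-TKO library above. In erythroid-like cells, where the libraries overlapped, its log2 fold change was 1.42 (edgeR adjusted p = 0.11).

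Cluster 29 was the class in which most of the genes were lower in Tet-TKO cells without overlap. Of the 9 members tested there 7 were lower, with a median log2 fold change of -0.88 against 0.02 over all genes of the cluster, and in 6 of 9 every Tet-TKO library was below both WT host libraries, against 10.9% of all genes. Lef1 was at 65.7, 70.3, 52.4 and 50.8 CPM against 122 and 110 CPM (-0.99 ± 0.20, edgeR adjusted p = 0.044), and Notum at 2.37, 2.93, 2.35 and 5.23 CPM against 8.45 and 20.4 CPM (-2.14 ± 0.47, edgeR adjusted p = 0.053). Tcf7, at 29.8, 36.1, 30.9 and 30.99 CPM against 29.2 and 31.4 CPM, and Rspo3, with a log2 fold change of -0.02, overlapped. The marker levels given for Dkk1 apply to these genes as well. In mesenchyme-like cells 8 of 9 members were lower (median -0.41 against 0.02), 5 of them without overlap (13.8% of all genes), but 4 of 8 were lower in cluster 6 and 2 of 8 in cluster 27 taken apart, where Lef1 was at 0.57 and 0.73 (edgeR adjusted p = 0.72 and 0.050). In cluster 4, 9 of 10 were lower (median -0.64 against 0.01), 4 of them without overlap (12.9% of all genes). In notochord-like cells 7 of 8 were lower, 4 without overlap (15.8%). Cluster 41, which makes up part of the class, had only Dkk1, Sp5, Nkd1 and Rspo3 tested. Of these, 2 of 4 were lower (median -0.16). There Dkk1 was at -1.99 ± 0.36 (edgeR adjusted p = 0.017) and Sp5 at -0.48 (0.87). Nkd1 was at 0.16 and Rspo3 at 0.23. Pharyngeal mesoderm-like and extraembryonic mesoderm-like cells each had 6 of 8 lower (medians -0.42 and -0.35). In each, 3 of them were lower without overlap (13.7% and 11.1% of all genes). In some other classes few members were lower. Erythroid-like cells had 1 of 8 lower, with a median of 0.77 against 0.03 over all genes, but none was above without overlap (23.2% of all genes), and in cluster 32, which makes up part of the class, 5 of 8 were lower. Cluster 36 had 1 of 7 lower (0.65 against 0.02). Midbrain and hindbrain-like cells had 2 of 10 lower (0.16 against 0.01) with 3 higher without overlap (9.15% of all genes), and in their clusters 13 and 17 1 of 9 and 5 of 7 were lower. Allantois-like cells had 2 of 9 lower (0.12 against 0.02) and neural crest-like cells 2 of 8 (0.25 against 0.02).

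**Figure D4:**
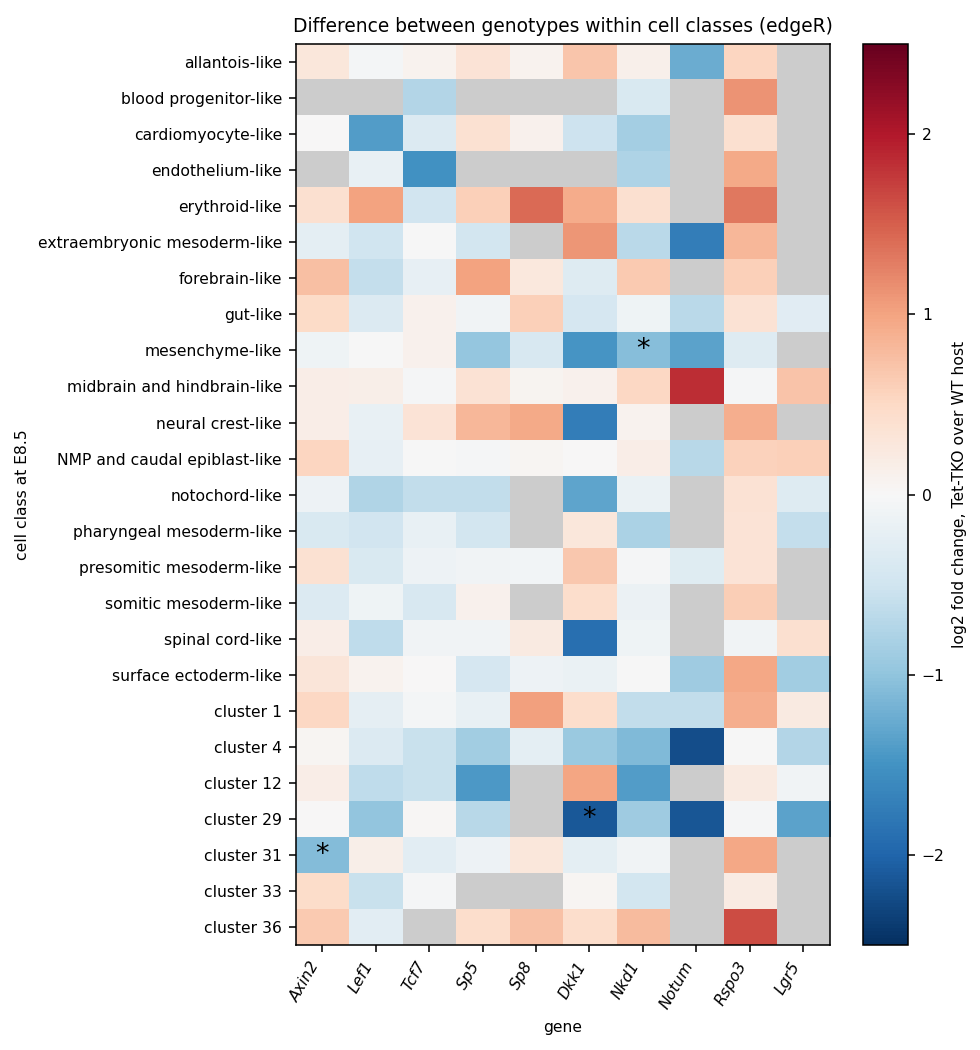
Log2 fold change (Tet-TKO minus WT host) of each gene (columns) in each E8.5 class (rows), from the edgeR fit of the class. Blue is lower and red higher in Tet-TKO cells, grey was not tested, and an asterisk marks the 3 calls. Notum is below 0 in 10 of 11 classes and Lef1 in 20 of 24, Rspo3 is above 0 in 20 of 25, and the row of cluster 29 holds 7 of 9 values below 0.

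Across classes the direction differed between the genes. Notum was lower in 10 of 11 classes (median log2 fold change -0.89), in 8 of them without overlap, and Lef1 in 20 of 24 (median -0.30), in 12 without overlap. Rspo3 was higher in 20 of 25 (median 0.55), in 8 without overlap. These classes share their libraries and are not independent. A gene at a low level, such as Notum or Lgr5, can pass the filter on low counts through the libraries of 1 genotype alone. Its count of directions thus covers the classes that passed and partly depends on the filter. Nkd1 was lower in 18 of 25 classes (median -0.14), Tcf7 in 18 of 24 (-0.10), Sp5 in 14 of 22 (-0.09) and Lgr5 in 7 of 11 (-0.28), while Dkk1 was divided, with 11 of 23 lower (0.01). Axin2 was higher in 17 of 23 (0.17) and Sp8 in 12 of 16 (0.17). Of 11039 genes tested in at least 10 classes, 20.4% were lower and 23.9% higher in at least 80% of their classes, so that a steady direction is common in these libraries. Over all member tests 113 of 204 (55.4%) were lower, against 48.3% of all tests, and in 53 (26.0%) every Tet-TKO library was below both WT host libraries, against 13.8% of all tests. In 19 (9.31%) every Tet-TKO library was above, against 10.7%.

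The pairs of Tet-TKO libraries were also set apart against the WT host libraries, which both fits share, so that they are not independent and are given side by side. Notum was lower in 11 of 12 classes with libraries 1 and 2 and in 10 of 11 with libraries 3 and 4, and Lef1 in 19 of 25 and 20 of 23. The limit set by the filter on low counts holds for Notum here too. Rspo3 was higher in 20 of 25 and 16 of 22. For Sp8 the pairs differed, with 14 of 17 classes higher in libraries 1 and 2 but 7 of 15 in libraries 3 and 4. With libraries 3 and 4 alone, Dkk1 was called in 8 classes, 6 lower and 2 higher, the latter being presomitic mesoderm-like (log2 fold change 1.21) and extraembryonic mesoderm-like cells (1.40).

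Whether the genotype effect of a gene in 1 class differed from the mean effect in the other classes was tested in a fit over all classes with a term for library. At an adjusted p of 0.01, 5 member results passed, against 0.774% of all 392125 gene and class contrasts. Nkd1 was lower in mesenchyme-like cells than elsewhere by -0.83 on the log2 scale (adjusted p = 2.64e-05 by edgeR, with 2.73% of genes called in that class) and in cluster 4 by -0.83 (0.0057, 0.0446% of genes). In midbrain and hindbrain-like cells Nkd1 was higher than elsewhere by 0.81 (0.00123, 0.0893% of genes), with 95.4, 74.6, 67.8 and 67.2 CPM in the Tet-TKO and 49.8 and 57.8 CPM in the WT host libraries. Lef1 was lower in cardiomyocyte-like cells by -1.17 (0.0070, 0.453% of genes) and higher in erythroid-like cells by 1.15 (0.0069, 10.6% of genes). None of the 5 remained past the threshold without the term for library, and 0 to 3 did when 1 library was left out. Other cell type markers again moved with these results. The 8 erythroid markers summed to 6.79 to 63.1 CPM in Tet-TKO and 1780 to 6648 CPM in WT host libraries in cardiomyocyte-like cells (8 of 8 lower), to 8.40 to 41.3 against 633 to 1426 CPM in cluster 4 (8 of 8 lower) and to 8.89 to 40.7 against 611 to 1551 CPM in midbrain and hindbrain-like cells (7 of 8 lower), and the 7 cardiomyocyte markers in cardiomyocyte-like cells to 16610 to 23190 against 27910 to 28910 CPM (3 of 7 lower). Of 26 lists 8 lay below and 1 above in cardiomyocyte-like cells, 7 and 0 in cluster 4, 10 and 0 in midbrain and hindbrain-like cells and 3 and 2 in erythroid-like cells. No marker of the lists named was at 0 in all libraries, and their part in the results was not tested. Erythroid-like cells were held by different clusters, with cluster 5 making up 4.31% of the Tet-TKO and 40.5% of the WT host cells and cluster 32 31.5% and 11.04%.

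The other genes of the pathway were described by 5 lists of names. Of the Wnt ligands 17 of 19 passed the filter in at least 1 class. In 138 tests edgeR called 0 higher and 4 lower, where 0.225% and 0.363% of all tests were. At an unadjusted p under 0.05, 17 were higher and 23 lower, and DESeq2 called 1 higher and 5 lower. Wnt1, expressed in the dorsal neural tube and midbrain, was at 12.8, 12.1, 6.73 and 13.7 CPM in midbrain and hindbrain-like cells of the Tet-TKO libraries and at 55.2 and 64.1 CPM in the WT host libraries (log2 fold change -2.40, edgeR adjusted p = 0.0015, with 0.605% of genes called in the class). Of the clusters of this class, it was called in cluster 13 (-2.56, with 0.609% of genes called) and not in cluster 17 (-1.13, edgeR adjusted p = 0.61). Wnt4 was called in extraembryonic mesoderm-like (-2.41, 0.118% of genes) and mesenchyme-like cells (-2.92) and Wnt2 in mesenchyme-like cells (-1.71), but neither was called in cluster 6 or cluster 27 taken apart. Of the 13 of 14 receptors and co-receptors and the 18 transducers that were tested, with 226 and 428 tests, none was called in either direction by edgeR or DESeq2, with 10 and 30 tests higher and 6 and 16 lower at an unadjusted p under 0.05.

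Of the secreted and membrane modulators 20 of 21 were tested in 236 tests, with 2 called higher and 1 lower, where 0.225% and 0.363% of all tests were. Rspo1, a secreted protein of the same family as Rspo3, was higher in midbrain and hindbrain-like cells, at 8.43, 9.73, 15.8 and 12.99 CPM against 2.24 and 2.51 CPM (log2 fold change 2.29, 0.605% of genes called), and in cluster 31 (1.14, 0.981% of genes). It was also called higher over whole libraries (1.17, edgeR adjusted p = 0.0095, 2.65% of genes). Sost, an inhibitor that binds LRP co-receptors, was lower in endothelium-like cells (-2.73, with 1.33% of genes called). Of 11 further target genes 10 were tested in 235 tests, with 0 called higher and 3 lower by edgeR. At an unadjusted p under 0.05, 37 were higher and 32 lower, and DESeq2 called 0 higher and 3 lower. The 3 edgeR calls were Ccnd2 in cardiomyocyte-like (-1.06, 0.875% of genes) and endothelium-like cells (-1.36) and Id2 in cardiomyocyte-like cells (-1.08).

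At E7.5, with 1 library per genotype, no test was possible and values have exact 95% intervals that cover counting error only. Over all cells Lef1 was at 83.2 CPM in Tet-TKO and 48.4 CPM in WT host cells (log2 ratio 0.78, interval 0.73 to 0.83) and Rspo3 at 132 and 70.7 CPM (0.91, 0.87 to 0.95). Sp5 was at 58.1 and 37.7 CPM, Axin2 at 25.9 and 18.7 CPM, Sp8 at 15.4 and 11.1 CPM and Tcf7 at 40.6 and 32.9 CPM. Dkk1 lay on the other side, at 18.4 against 26.2 CPM (-0.51, -0.60 to -0.43), while the intervals of Notum (-0.44 to 0.01) and Lgr5 (-0.12 to 0.31) included 0. The shares of classes differed here too, with extraembryonic ectoderm-like cells at 25.9% of the WT host and 0.163% of the Tet-TKO library.

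Within 24 E7.5 classes, intervals of the ratio that left out 0 lay below it in 4 classes and above it in 1 for Lef1, and below it in 6 for Nkd1, 8 for Dkk1 and 4 for Notum, with none above. For Rspo3 they lay below 0 in 4 classes and above it in 11, for Sp5 in 1 and 3, and for Sp8 in 0 and 6. The counts were 4 and 2 for Axin2, 2 and 1 for Tcf7, and 2 and 2 for Lgr5. Such intervals are common in sums of this depth. Among pairs of gene and class with at least 20 UMIs in both libraries together, they lay below 0 in 35 and above it in 25 of the 200 pairs of members, and in 11.3% and 7.31% of 230747 pairs over all genes. Cluster 15 (leading genes Cdx4, Car3 and Lor) had the highest WT levels of Lef1 and Nkd1, with Lef1 at 160 against 221 CPM (log2 ratio -0.47, -0.64 to -0.29) and Nkd1 at 68.9 against 149 CPM (-1.11, -1.34 to -0.88). In extraembryonic mesoderm-like cells Lef1 was at 72.4 against 104 CPM (-0.52, -0.67 to -0.36) and Nkd1 at 54.9 against 103 CPM (-0.91, -1.07 to -0.75). In nascent mesoderm-like cells the log2 ratio of Lef1 was -0.30 (-0.46 to -0.13). Somitic mesoderm-like cells differed, with Lef1 at 233 against 163 CPM (0.52, 0.37 to 0.66) and Sp5 at 68.9 against 27.5 CPM (1.32, 1.01 to 1.64).

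Dkk1 had its highest WT levels at E7.5 in gut-like and in anterior streak and definitive endoderm-like cells. Gut-like cells (74 Tet-TKO and 256 WT host cells) had 63.3 against 211 CPM (log2 ratio -1.74, -2.07 to -1.41), and anterior streak and definitive endoderm-like cells (81 and 18 cells) 35.3 against 143 CPM (-2.02, -2.61 to -1.42). Dkk1 was lower in presomitic mesoderm-like cells (6.59 against 24.1 CPM) and in surface ectoderm-like cells (27.3 against 62.6 CPM) as well. In cluster 15 its level was 41.5 against 31.7 CPM, with an interval that included 0. Rspo3 was at 137 against 89.2 CPM in somitic mesoderm-like and 153 against 128 CPM in extraembryonic mesoderm-like cells, but at 361 against 471 CPM in haematoendothelial progenitor-like cells, the class of its highest WT level, and at 326 against 398 CPM in cluster 15.

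**Figure D5:**
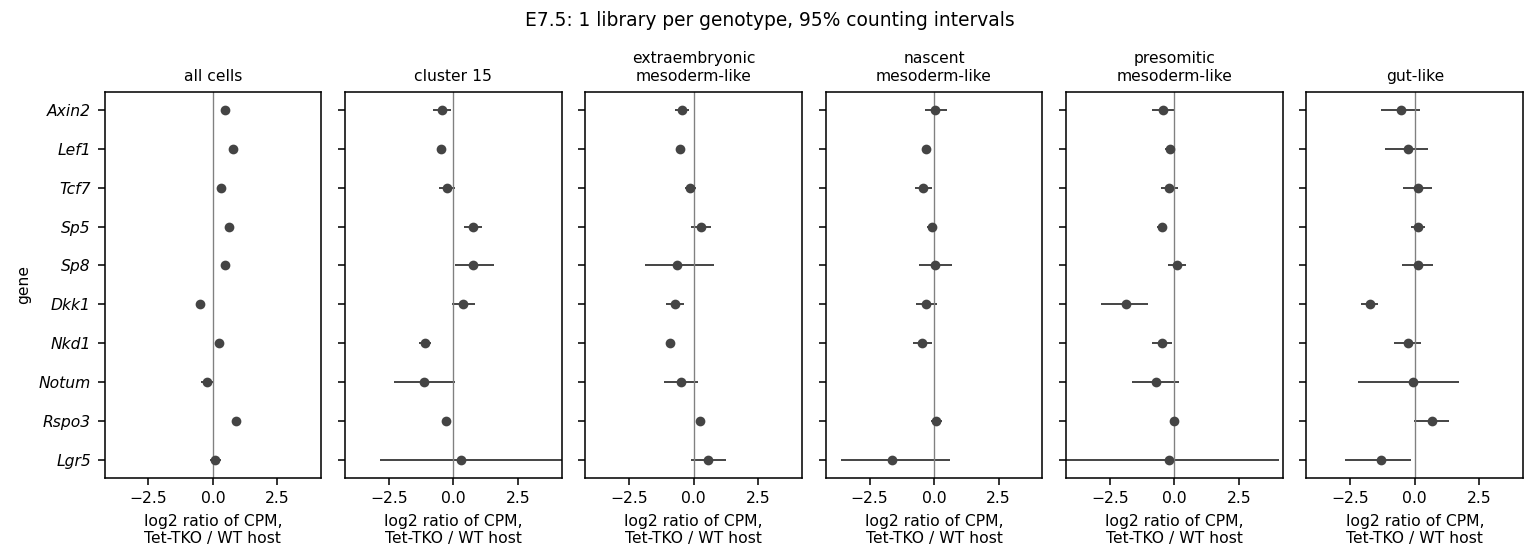
Log2 ratio of CPM (Tet-TKO over WT host library) at E7.5 for the 10 genes in all cells and in 5 classes, for 1 library of either genotype, with 95% intervals that cover counting error alone. Points left of 0 are lower in Tet-TKO cells, and intervals that run past the axis are cut by it. Dkk1 in gut-like cells lies at -1.74 and Nkd1 in cluster 15 at -1.11, whereas Rspo3 over all cells lies at 0.91.

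The patterns of the genes over classes were compared with those of 8896 genes with at least 20 CPM in a class, as Pearson's r of log2(CPM + 1) over the means of the WT host libraries in 27 classes, which share the 2 libraries. Nearest to Axin2 was Tnfrsf19 (r = 0.93), followed by Paip2 (0.87) and Pik3r2 (0.86). Lef1 was nearest to Ifitm1 (0.88), Kcnmb4 (0.87) and Shf (0.86), Sp5 to Mgst1 (0.88), Lrig3 (0.86) and Sulf1 (0.85), and Sp8 to Ptprz1 (0.91), Apba2 (0.91) and Map7d2 (0.89). Nkd1 was nearest to Gpc6 (0.87), Pcdh18 (0.87) and Sulf1 (0.83), Rspo3 to Epb41l2 (0.86), Hoxb6 (0.85) and Hoxb7 (0.83), and Notum to Aspscr1 (0.87), Gm45889 (0.86) and Hoxc4 (0.82). The nearest genes of Tcf7 (Pycr1, Pdlim4 and Rps6ka6), Dkk1 (Ep300, Zfp24 and Stk38) and Lgr5 (Btf3l4, Apool and Mysm1) had r between 0.75 and 0.81. Among the members Lef1 and Nkd1 (0.81), Axin2 and Lef1 (0.77) and Sp5 and Nkd1 (0.77) were closest.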

How the data were processed

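Raw UMI counts per gene and cell were deposited for 8 libraries. Per the file headers the authors made these counts with Cell Ranger 3.1.0 (the methods name another version), and per the methods on mm10 with Ensembl genes and the tdTomato sequence added. Every deposited barcode holds at least 500 UMIs. From there, cells were kept from 1500 UMIs upwards where mitochondrial genes took no more than 30% and ribosomal protein genes no more than 35% of the counts. They were clustered separately by stage with scanpy 1.11.5 and leidenalg 0.10.2 (2500 variable genes without the genes described here, 50 components, mutual nearest neighbour correction with 20 neighbours, a graph of 15 neighbours, resolution 2). A cluster was named from at least 3 raised markers (log2 fold of 1 or more), with a lead of 0.2 over the next class. Doublets were removed in an alternative only.

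Groups came from the sample labels. Counts were summed over class and library, sums of at least 10 cells were kept, and genotypes were compared in classes with at least 2 libraries of each by edgeR 4.0.16 (TMM, filter on low counts, quasi-likelihood F-test, Benjamini-Hochberg adjustment over all genes of the fit), with DESeq2 1.42.0 as an alternative. A call required an adjusted p of at most 0.01 and an absolute log2 fold change of at least 1. Class differences were fitted over all class and library sums with a term for library, with dispersions estimated inside the quasi-likelihood fit, and their alternatives were run in 7 classes. On simulated counts 200 genes were changed by a log2 fold of 2. Of these edgeR recovered 99.5% over whole libraries (20918 genes) and 88% in notochord-like cells (5748 genes). The changed genes were drawn from tested genes above the median level, and libraries were simulated as independent. These shares say nothing of genes at low levels or of smaller folds. Heatmap and likeness values used log2(CPM + 1). Intervals and limits of 0 counts (3 UMIs) cover counting error only, and cells were thinned to 5000 UMIs for shares of cells with a UMI. Packages ran under Python 3.11.15 and R 4.3.3.

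All 10 genes were named, with the 3 classes of highest WT level (among those with cells in both WT host libraries), all calls and class differences, and the nearest 3 genes of each. The members, lists and pathway genes were chosen with earlier results of these data known. Alternatives were size factors, filters, no fold minimum, matched cells, resolution, no correction, 30 cells per sum, summed library pairs, a replicate block and leaving out each library. Testing libraries 1 and 2 or 3 and 4 alone, testing clusters apart and the minimum of 20 UMIs for E7.5 intervals over all genes were added after the data were seen.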

Additional observations from a re-analysis of the deposited data

Results flagged for a closer look

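Rspo3 with class shares held fixed was at 83.4 CPM in Tet-TKO library 4, whose gap to the nearest other Tet-TKO library (98.9 CPM) was wide for the range of the 4 libraries. About 1 in 20 groups would be picked out in this way by chance, and 22 groups were tested. The library is also the smallest, with 1012 cells, and the Tet-TKO libraries lay above the WT host libraries (76.9 and 59.0 CPM) with it as without it.

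For 2 genes the effect of genotype in a class differed from the mean effect in the other classes, by the test of that difference. Lef1 was below the other classes by -1.17 on the log2 scale in cardiomyocyte-like cells and above them by 1.15 in erythroid-like cells. The first lost its call whichever library was left out, and the second held only without Tet-TKO library 4. The Tet-TKO libraries held 43, 145, 34 and 10 erythroid-like cells and the WT host libraries 1399 and 2334. In cluster 32 of this class taken alone the log2 fold change of Lef1 was -0.07 (edgeR adjusted p = 0.94), and over the class the 8 erythroid markers summed to 24630 to 63710 CPM in Tet-TKO and 88440 to 148300 CPM in WT host libraries (6 of 8 lower, none at 0). Their part was not tested. Nkd1 was below the other classes by -0.83 in cluster 4 and by -0.83 in mesenchyme-like cells, and above them by 0.81 in midbrain and hindbrain-like cells. In mesenchyme-like cells the difference failed only without WT host library 2 (adjusted p = 0.047) and without the term for library, in midbrain and hindbrain-like cells it failed without WT host library 1 (0.26) or 2 (0.29) as well as without that term, and in cluster 4 it held only without Tet-TKO library 1, all by edgeR. In clusters 13 and 17, which make up the midbrain and hindbrain-like class, the log2 fold changes of Nkd1 were 0.64 (edgeR adjusted p = 0.23) and 0.30 (0.76). In clusters 6 and 27, which make up the mesenchyme-like class, they were -0.64 (edgeR adjusted p = 0.38) and -0.13 (0.86).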

How the results depend on the processing

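Of the 3 lower and 0 higher calls of members within classes, no filter on low counts gave 11 and 3, cells matched on tdTomato 1 and 1, resolution 1 gave 1 lower, sums of 30 cells drawn per class and library 0 lower, no correction between libraries 3 lower (Notum and Sp5 in cluster 1 and Rspo3 in cluster 12, none of them among the 3 above) and 5 higher, all in erythroid-like cells, Tet-TKO libraries 1 and 2 alone 7 and 5, and libraries 3 and 4 alone 20 and 3. Leaving out 1 library gave 0 to 2 lower and 0 to 1 higher calls. Lower calls were 1 without Tet-TKO library 1, Tet-TKO library 2 or WT host library 2 and 0 without WT host library 1. The higher calls were Rspo3 in cluster 31 without Tet-TKO library 2 (log2 fold change 1.46) and Rspo3 in endothelium-like cells without WT host library 1 (1.83). At resolution 1 and with no correction cells were clustered anew, and each new cluster took the name of the class holding most of its cells. Class names in those settings therefore cover other cells than above. The share of all tests called moved as well, to 1.25% with no filter, 1.56% with libraries 1 and 2, 4.16% with libraries 3 and 4 and 2.7% with the block. Nkd1 in mesenchyme-like cells ranged from -1.18 to -0.13, where -0.13 is the value of cluster 27 taken alone. Dkk1 in cluster 29 ranged from -2.39 to -1.79 and Axin2 in cluster 31 from -1.25 to -0.94. Dkk1 in cluster 29 had no value at resolution 1, with no correction or with 30 cells per sum. Axin2 in cluster 31 had none at resolution 1, with summed pairs, with 30 cells per sum or with libraries 3 and 4 alone. Nkd1 lost its call whichever library was left out, with matched cells (edgeR adjusted p = 0.014), with no correction (0.23) and with 30 cells per sum (0.49), and Axin2 without Tet-TKO library 1 or 2 or WT host library 1, with DESeq2, with matched cells and with no correction.

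A replicate block could be tried for the 2 numbers that both genotypes share. The labels do not say that a number marks a shared pool, and deviations of Tet-TKO libraries 1 and 2 correlated at 0.32 and -0.05 with WT host libraries 1 and 2 over 21075 genes, so the numbers were not taken as pairs. The block gave 8 lower and 11 higher calls within classes and 1 over whole libraries.

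Over whole libraries the count of 0 higher calls was 1 with DESeq2, namely Rspo3, as with the block. Without erythroid-like and extraembryonic-like cells Sp5 (-0.29), Sp8 (-0.035), Dkk1 (-0.31) and Nkd1 (-0.15) lay below 0. Without 1 library Sp5 ranged from -0.042 (without WT host library 2) to 0.19, Dkk1 from -0.10 (without Tet-TKO library 1; -0.09 without WT host library 2) to 0.22, and Notum from -0.18 to 0.0010 (without Tet-TKO library 3; 0.00066 without WT host library 1). Sp5 also lay below 0 with Tet-TKO libraries 3 and 4 alone (-0.060), and Dkk1 with libraries 3 and 4 alone (-0.25). Notum lay above 0 with the block (0.10) and with libraries 1 and 2 alone (0.10). The 5 class differences were 0 without the term for library and 0 to 3 without 1 library. The cause of these shifts was not tested.

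With 2 WT host libraries, leaving out 1 leaves a lone library that is assumed to vary like the others, and so does leaving out Tet-TKO library 1 or 2 in cluster 31, where only these had enough cells. Low counts limited Notum and Lgr5, which could be tested in 11 classes each, and depth per cell differed up to several fold between Tet-TKO libraries.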
